A study of Mus musculus with 6 samples.

Results

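Small nucleolar RNAs (snoRNAs) are short non-coding RNAs of the nucleolus that guide chemical modification of ribosomal RNA. Box C/D snoRNAs (symbols beginning with Snord) pair with ribosomal RNA and place a methyl group on a ribose, and box H/ACA snoRNAs (Snora) direct the conversion of uridine to pseudouridine. In mammals most of them are cut out of the introns of host genes, many of which encode ribosomal proteins, translation factors or nucleolar proteins. Other hosts, the Snhg genes and Gas5, give spliced RNAs with little coding capacity and are thought to serve largely as carriers of their snoRNAs.

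The rows were picked by symbol alone from an array study of cultured mouse pancreatic buds, with no intensity used, although earlier results of these data were known when the group was proposed. There were 116 such rows among 24010 named genes, made up of 64 box C/D snoRNAs, 34 box H/ACA snoRNAs and 18 host genes (17 Snhg genes and Gas5). The groups were buds given I-BET151 at 500 nM (n = 2 arrays), buds given JQ1 at 100 nM (n = 2) and CTRL buds in 0.1% DMSO (n = 2). I-BET151 and JQ1 are small-molecule inhibitors of the BET bromodomain proteins, which bind acetylated histones and promote transcription. Each sample was a pool of 10 dorsal pancreatic buds of E11.5 mouse embryos, cultured for 24 hours, and the labels name no strain, sex or transgene. Both treatments were set against the same CTRL arrays and their doses differed. The labels do not tie pools to litters or to days of culture, and p-values therefore reflect only how far these arrays differed, which may be technical.

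All values are RMA intensities of Affymetrix arrays, which were deposited on a linear scale and are given below as deposited. Changes are differences of mean log2 intensity, tested with limma across the 24010 genes and called at a Benjamini-Hochberg adjusted p below 0.05. Arrays of one group correlated at 0.995 to 0.996 over these genes, and treated arrays correlated with CTRL arrays at 0.990 to 0.993. All 10 genes of a pancreatic bud check list, among them Pdx1 and Sox9, had a row. Mnx1 was the one that rose under JQ1, in a test that called 1.13% of all genes higher. At an unadjusted p below 0.05 in limma, 1 of the 10 was higher and 1 lower under each inhibitor. Hexim1, a gene known to rise when BET proteins are inhibited, measured 982 and 1053 in I-BET151 buds, 1263 and 1304 in JQ1 buds, and 625 and 656 in CTRL buds. It rose under both inhibitors (log2 change 0.67, limma adjusted p = 0.0432, for I-BET151 and 1.00, limma adjusted p = 0.0143, for JQ1). Lists of markers of other cells were read beside them, in a test that called 0.870% of all genes lower under I-BET151 and 2.67% under JQ1. Of 10 endothelial markers, 2 fell under I-BET151 and 5 under JQ1. Of 10 mesenchymal markers, 2 fell under I-BET151 and 4 under JQ1, and of 8 measured neural markers, 2 fell under I-BET151 and 3 under JQ1. The summed endothelial intensity was 4518 to 4869 in I-BET151 buds, 4239 to 4336 in JQ1 buds and 6244 to 6394 in CTRL buds. The summed mesenchymal intensity was 12989 to 13395 in I-BET151 buds, 12657 to 12767 in JQ1 buds and 15137 to 15674 in CTRL buds. The summed neural intensity was 1125 to 1228 in I-BET151 buds, 1056 to 1124 in JQ1 buds and 2106 to 2211 in CTRL buds. Of 10 liver, 8 measured erythroid and 10 macrophage markers, 0 were called by limma under either inhibitor (0, 0 and 1 higher and 2, 2 and 2 lower under I-BET151, and 0, 0 and 1 higher and 2, 0 and 4 lower under JQ1, at an unadjusted p below 0.05). The summed liver intensity was 3228 and 4908 on the I-BET151 arrays, 3248 and 5312 on the JQ1 arrays, and 5564 and 5270 on the CTRL arrays, so that 1 array of each inhibitor stood apart from its replicate. The summed erythroid intensity was 8980 to 9348 in I-BET151 buds, 9658 to 9670 in JQ1 buds and 9218 to 10017 in CTRL buds, and the macrophage sum was 4013 to 4432 in I-BET151 buds, 3858 to 4077 in JQ1 buds and 3985 to 4444 in CTRL buds. No marker of these lists was at the lowest value of the table. The part of these markers in the snoRNA results below was not tested. In pooled buds, a larger share of cells with much snoRNA and more snoRNA per cell cannot be told apart.

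Under JQ1, snoRNA rows of both box classes lay above CTRL, while the rows of the host genes did not. The median log2 change under JQ1 was 0.34 for box C/D snoRNAs and 0.29 for box H/ACA snoRNAs, against 0.01 for the 18 Snhg and Gas5 rows and 0.02 for all genes. The change was positive for 58 of 64 box C/D rows and 29 of 34 box H/ACA rows, compared with 10 of 18 host genes and 54.2% of all genes. Both JQ1 arrays exceeded both CTRL arrays in 44 box C/D and 20 box H/ACA rows, that is 64 of the 98 snoRNAs, where 23.9% of all genes did so. Among host genes this held for 2 of 18. Both JQ1 arrays lay below both CTRL arrays in 3 snoRNAs, where 21.0% of all genes did so.

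Of the 98 snoRNAs, 6 rose under JQ1 and 0 fell in the test across all genes, in which 1.13% of genes were called higher, 2.67% lower and 3.80% in either direction. They were the box C/D snoRNAs Snord89, Snord22, Snord66 and Snord35b and the box H/ACA snoRNAs Snora34 and Snora70. At an unadjusted p below 0.05, 42 snoRNAs were higher and 1 was lower in JQ1 buds, where 10.4% of all genes were higher and 11.2% lower. None of the 18 host genes was called under JQ1 in limma, with 1 higher and 2 lower at an unadjusted p below 0.05. Every call under JQ1, in snoRNAs and in all other genes, was lost when any 1 of the 6 arrays was left out of the full table. This loss was therefore not particular to the snoRNA rows. When rows below the median intensity were also left out, 99 of the 116 rows remained. Without 1 array, their median JQ1 log2 change was 0.24 to 0.40 for box C/D and 0.33 to 0.40 for box H/ACA snoRNAs.

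Under I-BET151 the snoRNA rows stayed near CTRL. The median log2 change was 0.08 for box C/D and 0.01 for box H/ACA snoRNAs, against 0.02 for host genes and 0.00 for all genes. It was positive in 46 of 64 box C/D rows, 18 of 34 box H/ACA rows and 10 of 18 host genes, where 52.5% of all genes were positive. Both I-BET151 arrays exceeded both CTRL arrays in 26 of 98 snoRNAs, near the 21.5% of all genes, and lay below them in 9, where 20.7% of all genes did so. No member was called under I-BET151 by limma, where 0.262% of all genes were called higher, 0.870% lower and 1.13% in either direction. At an unadjusted p below 0.05, 6 snoRNAs were higher and 1 was lower, and 2 host genes were lower. Over all genes 8.84% were higher and 10.0% lower, so these counts lie near or below the background.

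**Figure D1:**
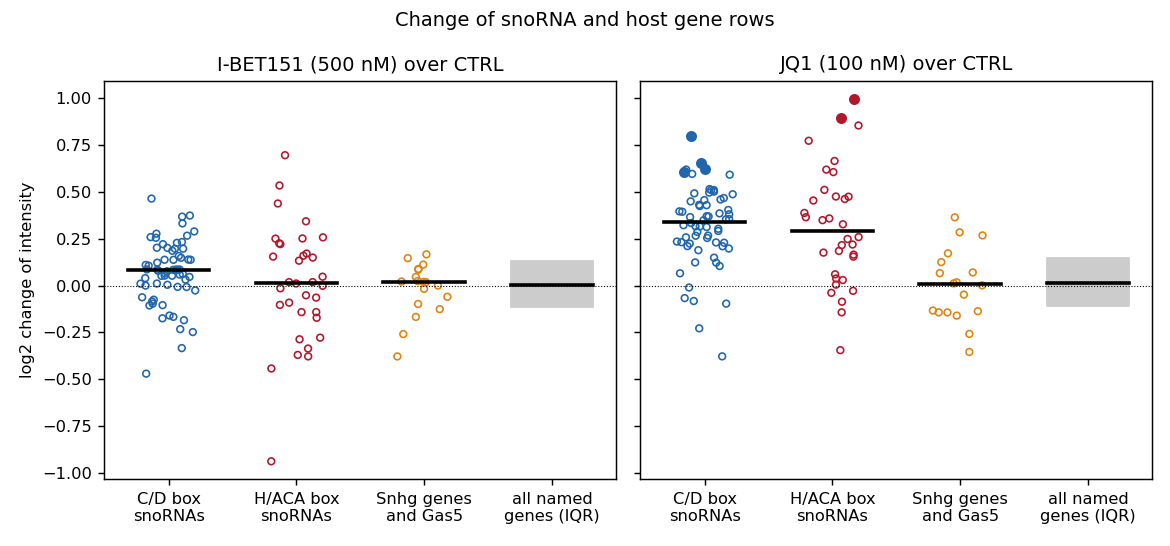
Log2 change of intensity under I-BET151 (left) and JQ1 (right) over CTRL, with a point per snoRNA or host gene row (filled where limma adjusted p was below 0.05), a bar at each class median, and a grey band for the middle 50% of all named genes. Under JQ1 the box C/D and box H/ACA medians stand at 0.34 and 0.29, while the host gene median stands at 0.01.

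The rise in class medians under JQ1 was seen on each JQ1 array. Relative to the CTRL mean of each row, the median box C/D snoRNA stood at 0.05 and 0.13 on the 2 I-BET151 arrays, at 0.26 and 0.34 on the JQ1 arrays, and at 0.07 and -0.07 on the CTRL arrays (log2 scale). The median box H/ACA snoRNA stood at -0.08 and 0.08 on the I-BET151 arrays, 0.34 and 0.31 on the JQ1 arrays, and 0.05 and -0.05 on the CTRL arrays. The pooled SD of these class medians within groups was 0.07 for box C/D and 0.08 for box H/ACA, so the JQ1 medians lay beyond the spread between arrays and the I-BET151 medians overlapped those of CTRL. The host gene median stood at -0.01 and -0.01 on I-BET151 arrays, 0.07 and -0.03 on JQ1 arrays and 0.05 and -0.05 on CTRL arrays. The members are not independent of each other, since they moved together between arrays of one group: CTRL 1 was above CTRL 2 in 49 of 64 box C/D rows, 22 of 34 box H/ACA rows and 14 of 18 host genes. For the same reason the class counts carry no p-value.

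**Figure D2:**
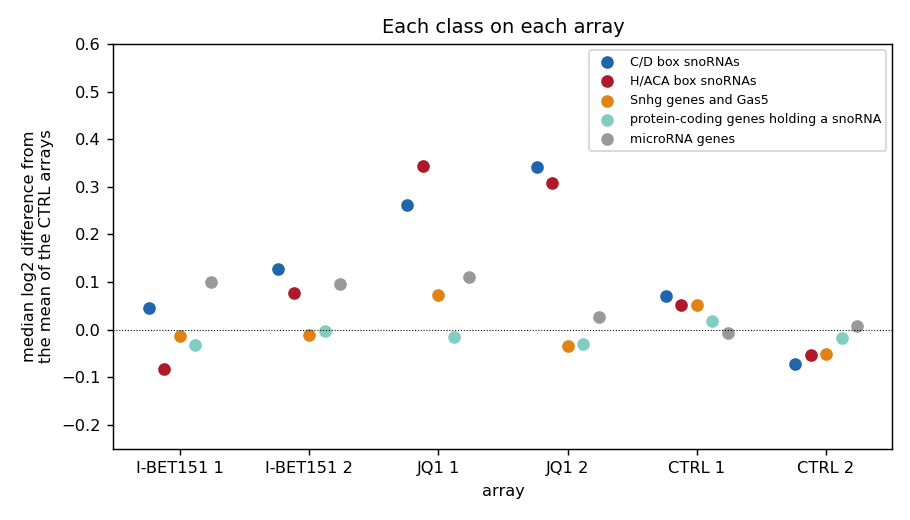
Median log2 difference from the CTRL mean (vertical axis) on each of the 6 arrays (horizontal axis), with a point each for box C/D snoRNAs, box H/ACA snoRNAs, Snhg genes and Gas5, protein-coding genes that hold a snoRNA, and microRNA genes. On the JQ1 arrays the box C/D points lie at 0.26 and 0.34 and the box H/ACA points at 0.34 and 0.31, above every other point on the plot.

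Under JQ1, microRNA and scaRNA genes had smaller medians than the snoRNAs, and under I-BET151 they had larger ones. The 4 Rnu genes, of spliceosomal and other small RNAs, had a median log2 change of 0.07 under I-BET151 and 0.09 under JQ1. The 534 microRNA genes had a median log2 change of 0.09 under I-BET151 and 0.08 under JQ1. The 8 scaRNA genes, whose products guide modification of spliceosomal RNAs in Cajal bodies, stood at a median of 0.16 under I-BET151 and 0.23 under JQ1, with 0 called in limma (0 and 1 at an unadjusted p below 0.05). The difference between snoRNAs and these genes was not tested. The snoRNAs also differed in brightness. The 81 snoRNAs at or above the median intensity of all genes (55.8) had a median change of 0.35 under JQ1, and both JQ1 arrays exceeded both CTRL arrays in 58 of them, where 32.4% of equally bright genes did so. The 17 dimmer snoRNAs had a median change of 0.20 and 6 such rows, where 23.9% of all genes, bright and dim together, did so. Under I-BET151 the medians were 0.05 for the 81 brighter and 0.20 for the 17 dimmer snoRNAs. Of the 534 microRNA genes, 430 lay below the same median intensity. The microRNA and snoRNA medians above therefore come from sets of unlike brightness.

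Snora34, a box H/ACA snoRNA in an intron of Kansl2, showed the largest change under JQ1 of the 98 snoRNAs. It measured 249 and 244 in I-BET151 buds, 435 and 447 in JQ1 buds, and 223 and 220 in CTRL buds. Both JQ1 arrays stood far above the other 4, which differed little among themselves. Its JQ1 change was 0.99 ± 0.05 on the log2 scale (SE, n = 2 each), a 1.99-fold difference (limma adjusted p = 0.0112). Its I-BET151 change of 0.15 was not called (limma adjusted p = 0.238).

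Snord89, a box C/D snoRNA, measured 133 and 135 in I-BET151 buds, 197 and 202 in JQ1 buds, and 115 and 115 in CTRL buds. All 4 treated arrays lay above both CTRL arrays, and the JQ1 arrays were highest. Its JQ1 change was 0.79 ± 0.05 (log2, SE), or 1.73-fold (limma adjusted p = 0.0146), and its I-BET151 change was 0.22 (limma adjusted p = 0.139). Snord22, one of the snoRNAs carried by Snhg1, was a bright row, with 1606 and 1671 in I-BET151 buds, 2403 and 2458 in JQ1 buds, and 1589 and 1500 in CTRL buds. Its JQ1 change was 0.65 ± 0.06 (log2, SE), or 1.57-fold (limma adjusted p = 0.0204), with I-BET151 arrays just above those of CTRL. Snora34, Snord89 and Snord22 were also the 3 snoRNAs called for the mean of both inhibitors against CTRL, a comparison in which 1.59% of all genes were called higher, 3.33% lower and 4.92% in either direction. None of the 116 rows was called lower there.

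The other calls under JQ1 lay nearer the threshold. Snord66, which lies within Eif4g1, measured 321 and 357 in I-BET151 buds, 467 and 506 in JQ1 buds, and 332 and 307 in CTRL buds (JQ1 log2 change 0.61 ± 0.09 SE, limma adjusted p = 0.0426). Snord35b measured 162 and 192 in I-BET151 buds, 249 and 264 in JQ1 buds, and 166 and 168 in CTRL buds (0.62 ± 0.10, limma adjusted p = 0.0490). In both, I-BET151 and CTRL arrays overlapped and JQ1 arrays stood apart. Snora70, inside Rpl10, was a dim row with 19 and 19 in I-BET151 buds, 29 and 34 in JQ1 buds, and 19 and 15 in CTRL buds (0.90 ± 0.14, limma adjusted p = 0.0490). At this brightness rounding to whole numbers is coarse, and its log2 change was 0.53 when 16 was added to every intensity before the log.

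**Figure D3:**
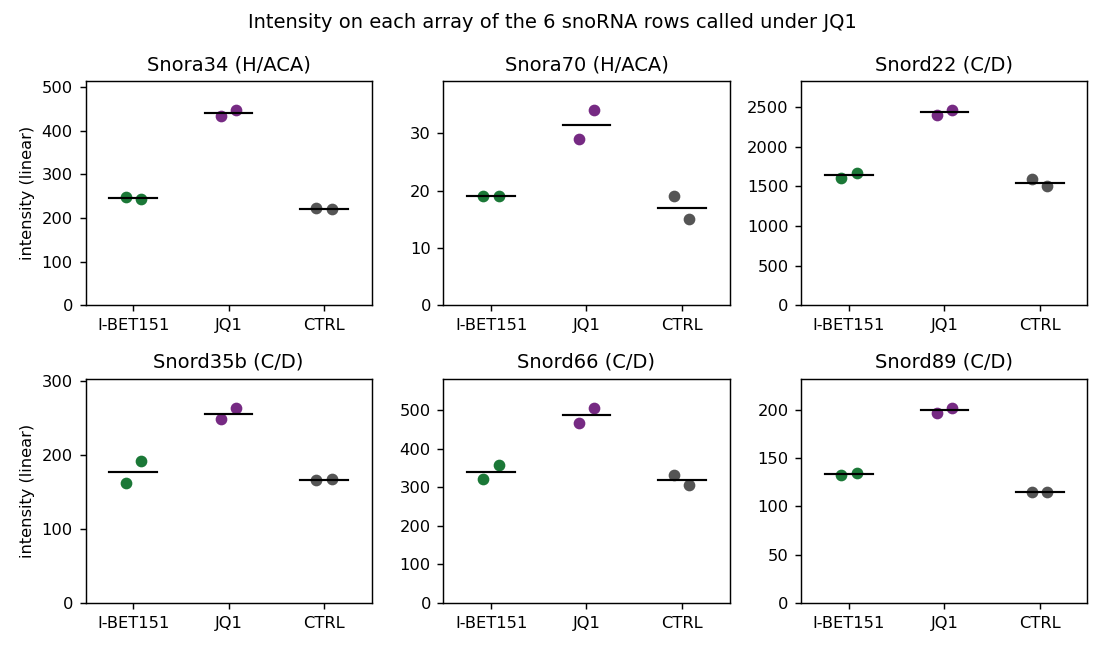
Intensity on each array (linear scale, from 0) of the 6 snoRNAs called under JQ1, with I-BET151, JQ1 and CTRL from left to right and a bar at each group mean. In every panel both JQ1 points lie above all other points, as in Snora34 with 435 and 447 against 223 and 220 in CTRL.

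Several snoRNAs moved as far as these without passing the test. Snora81, inside the translation initiation factor gene Eif4a2, measured 228 and 186 in I-BET151 buds, 242 and 273 in JQ1 buds, and 166 and 122 in CTRL buds. Its changes were 0.53 under I-BET151 (limma adjusted p = 0.238) and 0.85 under JQ1 (limma adjusted p = 0.0870). Snord71, in an intron of Ap1g1, likewise had all 4 treated arrays above CTRL, with 265 and 196 in I-BET151 buds, 285 and 256 in JQ1 buds, and 174 and 178 in CTRL buds (0.62 under JQ1, limma adjusted p = 0.116). Snora64, inside Rps2, measured 185 and 227 in I-BET151 buds, 282 and 311 in JQ1 buds, and 192 and 182 in CTRL buds (0.66 under JQ1, limma adjusted p = 0.0610). In this last row only the JQ1 arrays stood apart. Snora75, inside Ncl, reached 194 on 1 JQ1 array and 108 on the other, against 91 and 79 in CTRL buds, with 107 and 108 in I-BET151 buds. Snora44 reached 355 on 1 I-BET151 array and 170 on the other, with 203 and 184 in JQ1 buds and 144 and 160 in CTRL buds. For these 2 rows the spread within a treated group was as large as the difference from CTRL.

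A few snoRNAs did not share the shift. The lowest under JQ1 was Snord123, carried by Snhg18, with 129 and 104 in I-BET151 buds, 98 and 94 in JQ1 buds, and 134 and 116 in CTRL buds (log2 change -0.38, limma adjusted p = 0.204). Snord88c measured 101 and 104 in I-BET151 buds, 80 and 89 in JQ1 buds, and 88 and 111 in CTRL buds. Snord13, a snoRNA transcribed from its own promoter, varied widely, with 1463 and 2864 in I-BET151 buds, 2711 and 3280 in JQ1 buds, and 2767 and 2404 in CTRL buds. None of these rows was called, and treated arrays overlapped CTRL arrays in each except Snord123, in which both JQ1 arrays lay below CTRL. Snord72, Snora61, Snora78, Snora33 and Snora41, the other bright rows with the lowest mean change over both inhibitors, had JQ1 changes between -0.14 and 0.10.

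Some of the 5 brightest rows of each class are given next. Snord100 measured 6122 and 6143 in I-BET151 buds, 6838 and 7401 in JQ1 buds, and 6050 and 5885 in CTRL buds (JQ1 log2 change 0.25, limma adjusted p = 0.116). Snord33, one of the snoRNAs of the ribosomal protein gene Rpl13a, measured 5807 and 6022 in I-BET151 buds, 6410 and 6371 in JQ1 buds, and 5894 and 5851 in CTRL buds (0.12, limma adjusted p = 0.295). In both rows JQ1 arrays were the highest of the 6. Among the brightest box H/ACA rows, Snora16a measured 510 and 603 in I-BET151 buds, 856 and 777 in JQ1 buds, and 576 and 616 in CTRL buds (0.45, limma adjusted p = 0.103). Snora47 measured 1300 and 1690 in I-BET151 buds, 1391 and 1380 in JQ1 buds, and 1308 and 1654 in CTRL buds, with all groups overlapping. Among the other brightest rows, Snora23, Snord82 and Snora21 had JQ1 log2 changes of 0.26, 0.07 and 0.04.

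Set directly against each other, JQ1 and I-BET151 buds gave a higher median for JQ1 in both classes, by 0.26 for box C/D and 0.34 for box H/ACA snoRNAs on the log2 scale and 0.02 for host genes. Both JQ1 arrays exceeded both I-BET151 arrays in 54 of 98 snoRNAs, where 14.6% of all genes did so. No snoRNA or host gene passed the test of that difference in limma, in which 0.00% of all genes were called. At an unadjusted p below 0.05, 32 snoRNAs were higher and 1 lower in JQ1 buds, while over all genes 799 were higher and 811 lower. For Snora34 the difference was 0.84 (adjusted p = 0.718 in limma). The doses differed, at 100 nM JQ1 and 500 nM I-BET151, so these values describe the samples as treated and do not compare the compounds at a matched dose.

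Start-site windows of 6 of the host genes with non-coding spliced products are shown because a run of pyrimidines at the start of transcription (the terminal oligopyrimidine signature of ribosomal protein genes) is a known trait of snoRNA host genes. The bases come from RefSeq (GRCm38.p6), 30 on each side of the annotated start, with the pyrimidine run in capitals, or for Snhg15 the E-box CACGTG, the site bound by Myc and related factors.
Gas5 (chr1:161035136-161035195, + strand): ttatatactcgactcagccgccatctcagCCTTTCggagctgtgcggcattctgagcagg
Snhg1 (chr19:8723457-8723516, + strand): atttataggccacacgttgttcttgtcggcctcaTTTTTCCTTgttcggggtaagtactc
Snhg12 (chr4:132308648-132308707, + strand): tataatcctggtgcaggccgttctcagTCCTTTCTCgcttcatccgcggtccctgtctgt
Snhg7 (chr2:26640215-26640274, - strand): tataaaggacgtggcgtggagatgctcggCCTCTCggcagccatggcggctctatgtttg
Snhg8 (chr3:123508307-123508366, - strand): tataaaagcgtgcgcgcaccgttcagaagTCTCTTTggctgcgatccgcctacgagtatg
Snhg15 (chr11:6528731-6528790, - strand): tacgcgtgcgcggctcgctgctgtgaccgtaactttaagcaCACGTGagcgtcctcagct
A run of at least 5 C or T on the transcribed strand, overlapping the stretch from 2 bases before to 12 bases after a start, was found for 12 of the 16 host genes with a promoter entry (75%), where 40.2% of 27025 genes had one. TATAA on either strand occurred within the 300-base promoter window of 8 of 16 (50%), where 28% of all genes had it, and CACGTG in 2 of 16 (12.5%), where 8.09% had it. These are matches of letters and not measured sites. The 6 windows shown are a selection. Gas5 and Snhg17 each also had an annotated start with no such run of C or T. The starts of Snhg11, Snhg14, Snhg15 and Snhg20 had none.

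None of these host genes was called. Gas5, whose introns hold a set of box C/D snoRNAs, measured 235 and 189 in I-BET151 buds, 231 and 216 in JQ1 buds, and 231 and 197 in CTRL buds. The groups overlapped, and its changes were -0.02 and 0.07 under I-BET151 and JQ1. Snhg1 measured 872 and 860 in I-BET151 buds, 883 and 997 in JQ1 buds, and 1037 and 1035 in CTRL buds, with all treated arrays below CTRL (-0.26, limma adjusted p = 0.186, and -0.14, limma adjusted p = 0.378). Snhg15 came nearest to a call, with 149 and 139 in I-BET151 buds, 154 and 139 in JQ1 buds, and 189 and 185 in CTRL buds. Its changes were -0.38 under I-BET151 (limma adjusted p = 0.113) and -0.35 under JQ1 (limma adjusted p = 0.0872), and -0.37 for the mean of both (limma adjusted p = 0.0581). With rows below the median intensity left out of the fit, Snhg15 passed the test under JQ1.

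Among the remaining host genes JQ1 changes ran from -0.26 in Snhg18 to 0.36 in Snhg11. Snhg12, which carries a group of box H/ACA and box C/D snoRNAs, measured 163 and 165 in I-BET151 buds, 163 and 161 in JQ1 buds, and 174 and 184 in CTRL buds. Snhg6 measured 716 and 652 in I-BET151 buds, 685 and 688 in JQ1 buds, and 791 and 744 in CTRL buds. In both, all 4 treated arrays lay below CTRL by a small margin. Snhg3, Snhg4, Snhg5, Snhg7, Snhg8, Snhg9, Snhg10, Snhg14, Snhg16, Snhg17 and Snhg20 had JQ1 changes between -0.14 and 0.28.

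**Figure D4:**
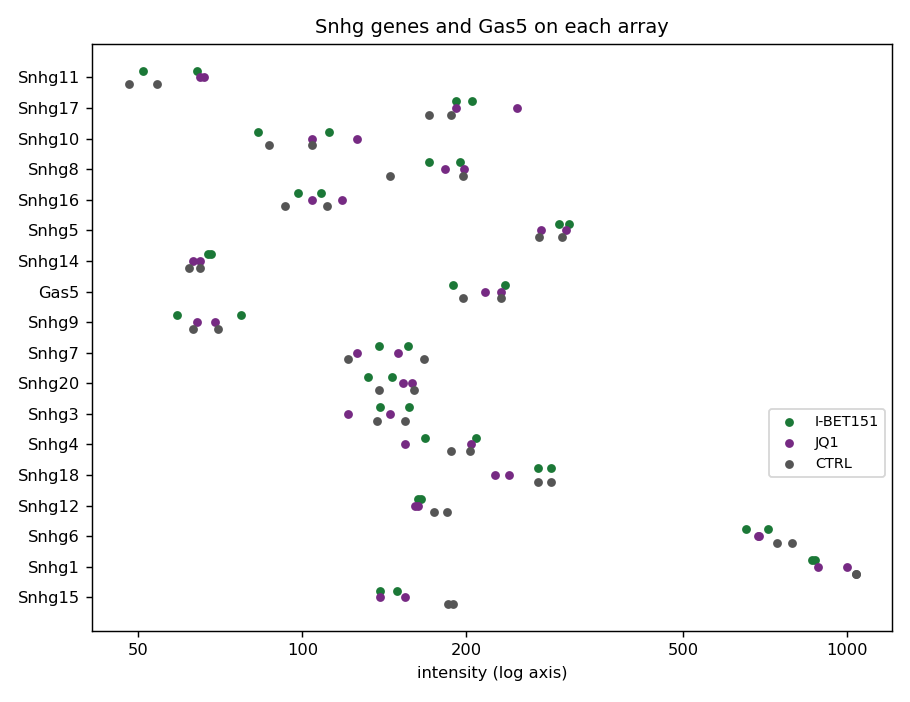
Intensity (log axis) of each Snhg gene and Gas5 on each array, with I-BET151 above JQ1 above CTRL within a gene and genes ordered by their mean change over both inhibitors. The groups lie close together or overlap in most rows, and in Snhg15 the I-BET151 arrays (149 and 139) and JQ1 arrays (154 and 139) lie left of the CTRL arrays (189 and 185).

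Each snoRNA was then set beside the gene whose RefSeq span contains it, a match by position that did not use strand. Of the 98 snoRNAs, 77 lay in 57 measured host genes, 18 in a gene with no named row here and 3 in none of the protein-coding or long non-coding genes, Snord89 among them. Under JQ1 the 77 snoRNAs had a median change of 0.35 and their hosts, each counted once, a median of -0.05. The snoRNA's change exceeded that of its host in 65 of 77 pairs, with a median excess of 0.37. Under I-BET151 the medians were 0.08 and -0.02, and the snoRNA exceeded its host in 52 of 77 pairs by a median of 0.09. None of the 57 hosts was called by limma under either inhibitor, with 1 higher and 5 lower under I-BET151 and 4 higher and 4 lower under JQ1 at an unadjusted p below 0.05. These counts are near or below the shares over all genes (8.84% higher and 10.0% lower under I-BET151, 10.4% and 11.2% under JQ1). Pairs that share a host share its value, so these counts are a description.

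In each kind of host the snoRNA median lay above the host median under JQ1. For 56 snoRNAs in 43 protein-coding genes the median JQ1 change was 0.34, and it was -0.05 for those genes. For 16 snoRNAs in 11 Snhg genes or Gas5 it was 0.35, and -0.13 for those hosts. For 5 snoRNAs in 3 other non-coding genes it was 0.43, and -0.14 for those hosts. Across the 77 pairs, the changes of snoRNA and host had a Pearson correlation of -0.05 under JQ1 and -0.13 under I-BET151, given as a description since the pairs share arrays and some share hosts.

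Pairs within single genes show the same. Snord22 changed by 0.65 under JQ1 while Snhg1 stood at -0.14. In Snhg12, at -0.14, Snord99 had a change of 0.46, Snora16a of 0.45, Snora44 of 0.35 and Snora61 of -0.04. In Snhg3, at -0.13, the near-identical copies Snora73a and Snora73b had changes of 0.62 and 0.51, and probes may not separate them. Snora74a stood at 0.46 in Snhg4, at -0.14. Other pairs did not differ in this way: Snord47 stood at -0.07 and its host Gas5 at 0.07, and Snord123 at -0.38 and Snhg18 at -0.26.

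SnoRNAs of one host did not always move alike. There were 16 hosts with more than 1 measured snoRNA, holding 36 rows, and the JQ1 changes within such a host spanned a median of 0.22. The widest span was 0.82, in Kansl2, where Snora34 stood at 0.99 and Snora2b at 0.18, and the gene itself at 0.25. In Ncl, the gene of the nucleolar protein nucleolin, Snora75 stood at 0.77 and Snord82 at 0.07, and the gene at -0.09. Rpl23a, the protein-coding host with 3 measured snoRNAs, was too variable for a comparison, with 108 and 94 in I-BET151 buds, 86 and 92 in JQ1 buds, and 47 and 107 in CTRL buds. Its snoRNAs Snord42a, Snord42b and Snord4a had JQ1 changes of 0.12, 0.21 and -0.01.

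**Figure D5:**
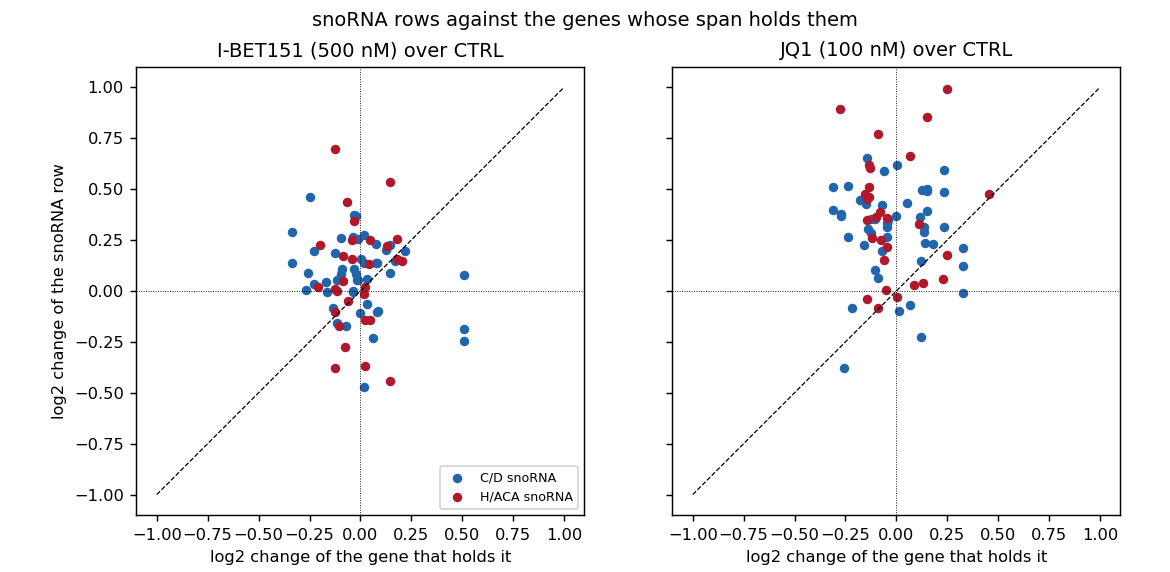
Log2 change of each of 77 snoRNAs (vertical axis) against the log2 change of the gene that contains it (horizontal axis), under I-BET151 and under JQ1, with the line of equal change. Under JQ1 65 of 77 points lie above the line, and under I-BET151 52 of 77.

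The rows of genes that encode proteins of snoRNA particles did not follow the snoRNA rows, and the proteins themselves were not measured. The 4 core proteins of box H/ACA particles are dyskerin (Dkc1), which is the pseudouridine synthase, and Gar1, Nhp2 and Nop10. Gar1 measured 319 and 308 in I-BET151 buds, 243 and 251 in JQ1 buds, and 361 and 356 in CTRL buds, and it fell under JQ1 (log2 change -0.54, limma adjusted p = 0.0238). Dkc1 measured 534 and 584 in I-BET151 buds, 575 and 544 in JQ1 buds, and 783 and 756 in CTRL buds, and it fell under JQ1 (-0.46, limma adjusted p = 0.0490). In both genes all 4 treated arrays lay below both CTRL arrays. Nhp2 measured 261 and 273 in I-BET151 buds, 279 and 287 in JQ1 buds, and 361 and 364 in CTRL buds, and it fell for the mean of both inhibitors (-0.40, limma adjusted p = 0.0285). Under JQ1 alone it missed the threshold (-0.36, limma adjusted p = 0.0501). Over all genes, 2.67% were called lower under JQ1 and 3.33% for the mean of both inhibitors. Nop10 had a JQ1 change of -0.07 (limma adjusted p = 0.603). The median log2 change of the 4 genes was -0.32 under I-BET151, where 0 were called, and -0.41 under JQ1. At an unadjusted p below 0.05 in limma, 4 were lower under I-BET151 and 3 under JQ1. Over all genes, 10.0% and 11.2% were lower at that p. Both arrays of each inhibitor lay below both CTRL arrays in all 4 genes.

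Of the genes of the box C/D core proteins, 3 of 4 had a row and none was called by limma under either inhibitor. Nop58 stood at -0.24 under JQ1 (limma adjusted p = 0.136), the methyltransferase fibrillarin (Fbl) at -0.23 (limma adjusted p = 0.531) and Nop56 at 0.14 (limma adjusted p = 0.333). None of 17 measured assembly factors, such as Naf1 and Ruvbl1, was called in limma (2 higher and 1 lower under JQ1, 1 higher and 4 lower under I-BET151, at an unadjusted p below 0.05). Of 14 genes of snoRNA trimming and decay, Tent4b, a polymerase that adds tails to nuclear RNAs, rose for the mean of both inhibitors (0.39, limma adjusted p = 0.0460). In that comparison 1.59% of all genes were called higher. The median change of these 14 genes there was -0.04, and 4 were positive. At an unadjusted p below 0.05 in limma, 1 was higher and 2 were lower under JQ1, and 1 and 1 under I-BET151. Of 11 measured genes of nonsense-mediated decay, the pathway that degrades the spliced RNAs of several Snhg genes, none was called in limma (4 higher and 1 lower under JQ1 at an unadjusted p below 0.05, and 3 and 1 under I-BET151). For these lists, the shares over all genes at that p were 10.4% higher and 11.2% lower under JQ1, and 8.84% and 10.0% under I-BET151.

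Genes of ribosome assembly had medians below 0. The 34 ribosome biogenesis genes had a median log2 change of -0.15 under I-BET151 and -0.12 under JQ1, against 0.00 and 0.02 for all genes. Of these, 2 fell under JQ1, where 2.67% of all genes did so, the small-subunit assembly factors Utp20 (-0.50, limma adjusted p = 0.0252) and Heatr1 (-0.41, limma adjusted p = 0.0471). The 62 cytosolic ribosomal protein genes, a class that hosts many of the snoRNAs, had a median of -0.05 under both inhibitors. Myc, which drives many genes of this kind, fell for the mean of both inhibitors (-0.53, limma adjusted p = 0.0310).

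The array rows do not say which RNA they measured. Box C/D snoRNAs here had annotated lengths of 45 to 221 bases (median 68) and box H/ACA snoRNAs of 61 to 205 (median 121). RNA was isolated on silica columns, which recover RNA of this size poorly, and intron sequence of the host's precursor carries the same letters as the snoRNA. A change in mature snoRNA, in unspliced precursor and in recovery of short RNA cannot be told apart in these rows.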

How the data were processed

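Total RNA from pools of cultured mouse dorsal pancreatic buds was extracted with the RNeasy Micro kit, amplified and hybridised to Affymetrix whole-transcript arrays, per the labels' protocols. The authors deposited one RMA intensity per gene and array, on a linear scale and in whole numbers, with RMA named in the submitters' processing notes. No label or header names a genome build for the arrays. Of 24972 rows, 24014 had 1 gene symbol, 958 were not named here, and the brightest row was kept where a symbol recurred (4 rows dropped), leaving 24010 genes.

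Intensities were transformed to log2 with no pseudocount and fitted with limma 3.58.1 in R 4.3.3, with group as the only term over all 6 arrays (3 residual degrees of freedom), and p-values were adjusted by Benjamini-Hochberg over all 24010 genes. The number of arrays limits the precision.

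Members and gene lists were chosen with earlier results of these data known. Members were rows whose symbol begins with Snord, Snora or Snhg and a number, and Gas5. Named rows were all host genes, called snoRNAs, the 8 highest and 8 lowest bright snoRNAs by mean change, the 5 brightest of each class, snoRNAs inside Snhg genes, core proteins and the leading genes of each list. Kansl2, Ncl, Rpl10, Mnx1 and the gene pairs beyond this rule were chosen after their values were seen. The host was the shortest RefSeq span (GRCm38.p6) of a measured protein-coding or long non-coding gene around a snoRNA on the same chromosome. For Snord71 and Snord8 a shorter span belonged to a gene with no named row here. The plan also named strand, which that table does not give, so strand was not used.

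The numbers in the sample titles were checked for pairing over 12005 bright genes. Deviations of same-numbered arrays correlated at -0.02 (CTRL with I-BET151), -0.10 (CTRL with JQ1) and 0.04 (I-BET151 with JQ1), so the numbers were not used as pairs. Alternatives were a filter on dim rows, median centring, a pseudocount of 16, a trended and robust prior, dithered rounding, unnamed rows kept in the fit, fits of 2 groups, a replicate block and leaving out each array.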

Additional observations from a re-analysis of the deposited data

How the results depend on the processing

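No called change reversed its direction under any alternative that was run, while class medians near 0 changed sign without 1 array. The count of called genes depended strongly on the setting. With rows below the median intensity left out, calls numbered 1422 for I-BET151, 2362 for JQ1 and 2675 for their mean, against 272, 912 and 1181 in the full table, and member calls numbered 1, 29 and 15, against 0, 6 and 3. Of the 29 members called under JQ1 there, 28 were higher and 1, Snhg15, was lower. After median centring of each array, 533 genes (183 higher, 350 lower) were called for I-BET151 against 63 higher and 209 lower, and 1391 (664 higher, 727 lower) for JQ1 against 272 higher and 640 lower. Member calls were then 15 for JQ1 and 9 for the mean, and the host gene median under JQ1 was 0.0710. A pseudocount of 16 gave 661, 1615 and 1963 genes and 10 members under JQ1. A trended and robust prior gave 1806, 2617 and 3006 genes, 2, 33 and 22 members, and 6 genes and 2 members for JQ1 against I-BET151. Dithered rounding gave 590 genes for I-BET151 and 11 members under JQ1. Fits of only the 2 groups compared gave 0 genes and 0 members for each inhibitor by limma (11 members for I-BET151 and 49 for JQ1 at an unadjusted p below 0.05).

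With the replicate number as a block, limma called 0 genes and 0 members in each comparison, with 8 members for I-BET151, 41 for JQ1 and 26 for their mean at an unadjusted p below 0.05. The labels do not say whether the numbers pair the samples, and the correlations of same-numbered arrays cannot settle it. Whether the block belongs in the fit is therefore not known. Leaving out 1 array of the full table gave 0 genes and 0 members in each comparison by limma. At an unadjusted p below 0.05 there were then 3 to 14 members for I-BET151, 27 to 49 for JQ1 and 7 to 28 for their mean. With dim rows also left out, calls ranged from 377 to 1042 genes for I-BET151 (409 without CTRL replicate 1, 753 without I-BET151 replicate 2), 951 to 2205 for JQ1 and 1001 to 2316 for the mean (1918 without I-BET151 replicate 1, 1849 without JQ1 replicate 2), and from 0 to 4, 5 to 31 (18 without CTRL replicate 1) and 2 to 14 members. The fewest JQ1 members, 5, came without CTRL replicate 2. A lone array was assumed to vary like the other groups. Without 1 array, the JQ1 median ranged from 0.26 to 0.40 for box C/D, 0.29 to 0.36 for box H/ACA and -0.0503 to 0.0719 for host genes, and from 0.24 to 0.40, 0.33 to 0.40 (0.38 without JQ1 replicate 1) and -0.0503 to 0.0719 with dim rows left out. The I-BET151 median ranged from 0.02 to 0.14 for box C/D, -0.0816 to 0.0770 for box H/ACA and -0.11 to 0.0814 for host genes, and from 0.00815 to 0.13, -0.18 to 0.0707 and -0.11 to 0.0814 with dim rows left out. The causes of these differences were not tested. Over 20 alternatives the JQ1 change of Snora34 stayed between 0.94 and 1.06, with limma adjusted p from 2.01e-05 to 0.160 and 12 calls. Of the values of single genes, 4090 kept their side of the threshold or moved by less than 1 SD, 262 passed it newly, 186 lost it and 258 moved further.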
